A study of Mus musculus with 34 samples.

Results

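Livers in which a TGFα and a c-Myc transgene had been turned off for 4 weeks were compared with tumors in which both transgenes were still on. The arrays were chosen by their sample titles: 3 of livers off for 4 weeks and 3 of tumors, 6 of the 34 arrays of the series. Each tumor array held RNA of an individual mouse liver tumor that carried both transgenes and had no doxycycline. Each off array held RNA of the liver of a mouse with the same transgenes, silenced by 4 weeks of doxycycline. Of the other arrays, 3 of control livers without transgene or doxycycline served as a measured background. Tumors with the c-Myc transgene alone (7 arrays) and livers with that transgene off for 4 weeks (3 arrays) served to ask whether the response differed. The labels call the arrays of a group biological replicates, and the promoter that drives the transgenes, the mice's sex and their age are not stated in the labels. All mice off the transgenes had doxycycline and no tumor did, so the drug, the loss of the transgenes and the change from tumor to liver tissue cannot be told apart. In bulk RNA, fewer cells of a type and less RNA per cell cannot be told apart either.

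TGFα is a ligand of the EGF receptor, which signals through RAS and ERK to growth. c-Myc is a transcription factor that, with its partner Max, drives genes of ribosome making, nucleotide and amino acid synthesis and cell division. In mouse liver the pair together is known as a strong driver of hepatocellular tumors, and tumor hepatocytes commonly lose metabolic enzymes of the adult liver and regain fetal genes such as Afp.

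Each array compared the sample, labelled with Cy3, with a reference RNA pooled from livers of mice of both sexes, labelled with Cy5. Values below are log2 of sample over reference, so that 0 is the level of the reference. On the 6 arrays, 51.5% to 69.7% of probes stood well above background in Cy3, and precision is limited by how few arrays there are. The tumors correlated with each other across genes at r between 0.63 and 0.74, and off livers 1 and 2 at 0.88, but off liver 3 correlated with them at only 0.10 and 0.16 (genes are not independent replicates). In the sample channel alone the array of off liver 3 correlated with off livers 1 and 2 at 0.95 and 0.96, against 0.99 between those arrays. Tumors 1 and 2 shared a slide and a scan day, tumor 3 lay on another, off livers 1 and 2 shared another again, and off liver 3 lay on one with no other of the 6. No scan day held both groups, so scan day and group could not be compared within a day. With scan day as a block, which could be fitted only through 3 arrays of another slide with another reference profile, 509 genes passed and the medians of 10 of the 13 main gene lists described below turned in sign, that of mitosis from -1.24 to 1.57; the cause was not tested. With the slide as a random block, at an estimated within-slide correlation of 0.48, 397 genes passed, and the counts of the gene lists under this slide block are given beside each.

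The sex-linked genes set off liver 3 apart. Xist, the RNA that silences an X chromosome and is made in female cells, stood at 1.98 and 1.86 in off livers 1 and 2 and at -6.13 in off liver 3. The Y-linked Eif2s3y stood at -4.48 and -4.65 in off livers 1 and 2 and at 0.60 in off liver 3, and Ddx3y at -3.45, -3.15 and 1.44. Among the tumors, Xist was 0.86, -2.86 and -1.89 and Eif2s3y -2.35, 1.05 and 0.23 in tumors 1, 2 and 3. Off livers 1 and 2 and tumor 1 thus had high Xist with low Y-linked genes, and the other 3 arrays the opposite. The sex-biased genes of the liver ran the same way within the off group. Sult3a1, a sulfotransferase higher in female liver, was 4.79 and 4.92 in off livers 1 and 2 and -5.26 in off liver 3. The male-biased steroid dehydrogenase gene Hsd3b5 was -2.83 and -3.33 against 1.03. Over 23 male-biased genes the median was -2.37, -1.82 and -0.25 in tumors 1, 2 and 3 and -1.52, -1.76 and 0.39 in off livers 1, 2 and 3, and over 26 female-biased genes -1.14, -0.73 and -0.80 and 0.31, 0.60 and -0.79. Of these lists 1 gene, Ugt2b38, rose and none fell, and without off liver 3 2 female-biased genes rose. The part of sex in the other results was not tested. The counts of the leading gene lists are therefore given with all 3 off livers and without the third.

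**Figure D1:**
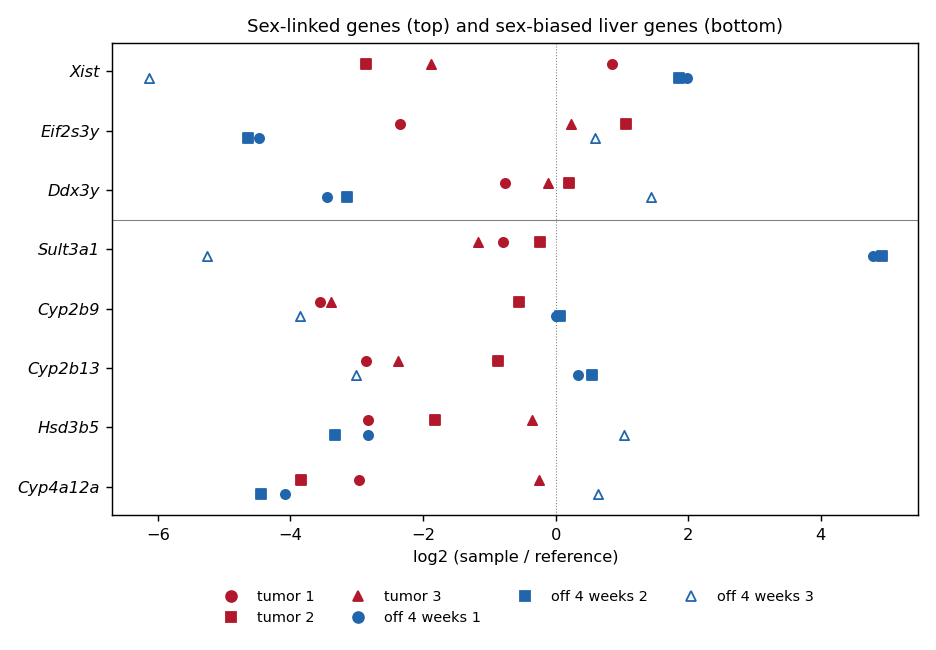
Log2 of sample over reference of sex-linked genes (top) and sex-biased liver genes (bottom) in each of the 3 tumors (red) and the 3 off livers (blue; off liver 3 as an open triangle). Off liver 3 lies far from off livers 1 and 2 in each gene shown, at -6.13 against 1.98 and 1.86 for Xist.

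Myc and Tgfa RNA was read at the array's probes for these genes. The Myc probe A_52_P108346 stood at 4.65, 5.48 and 0.83 in tumors 1, 2 and 3 and at 1.35, 1.06 and 0.61 in off livers 1, 2 and 3. The controls ran from -1.07 to 0.17. Tumors 1 and 2 were far above every off liver, while tumor 3 lay among them, and the difference of -2.65 (SE 1.09) did not pass the test (limma, adjusted p over all probes = 0.182). The Myc probe A_52_P278549 had the same order of tumors, at 1.67, 3.03 and 0.071, with off livers at 0.26, -0.031 and 0.027. The Myc probe A_51_P102096 ran the other way, at 0.020, 0.46 and 0.12 in the tumors and 1.94, 1.24 and 0.51 in the off livers, and did not pass either (adjusted p = 0.163). By the log ratio held in the scanner files, Myc at its brightest probe did pass (-3.43, limma, adjusted p = 0.0149). In all, a fall of Myc passed in 5 of 26 alternative settings. Which of the Myc and Tgfa probes can read the transgenes, if any, is not stated. Both Tgfa probes stayed between -0.56 and 0.49 on all 6 arrays, and neither passed the test. No fall of Tgfa RNA was measured, and Myc RNA was above the off livers in 2 of 3 tumors at the probes A_52_P108346 and A_52_P278549.

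Of 22263 genes tested, 1316 passed an adjusted p of 0.05 in limma (5.91%), 638 higher (2.87%) and 678 lower (3.05%) in the off livers, and 4181 had an unadjusted p under 0.05. Without off liver 3, 1146 passed, 580 higher (2.61%) and 566 lower (2.54%). The fits shared 774 genes called in the same direction, 58.8% of the calls with all 3 off livers and 67.5% of those without the third. At the 1146 genes called without it, off liver 3 lay nearer to the mean of off livers 1 and 2 in 680 and nearer to the tumor mean in 466. Tumor 1 mattered more to the count: without it 306 genes passed, without tumor 2 730, without off liver 2 641 and without tumor 3 1880. The scanner's own log ratio gave 3399 calls, 1628 higher and 1771 lower. With it each main gene list described below, but that of ER folding, had a median larger in size than in the main fit. With this ratio all 20 genes with the largest called changes kept their direction and their call. By that ratio Phgdh fell by 5.92 (adjusted p = 0.000237), Cdc20 fell by 5.56 (adjusted p = 0.000672), and Saa2 rose by at least 3.75 (adjusted p = 0.00308) and Orm1 by 4.05 (adjusted p = 0.00179). The authors' series matrix gave 3716, of which 59.1% were higher against 48.5% in the main fit, with a median over all genes shifted by 0.32. Other settings cost leading genes their call. Of 27 named genes (the largest called changes with or without off liver 3, Myc and Tgfa), 19 lost it over the 6 arrays alone. With the slide as a random block 16 lost it. With the replicate number as a block over the 6 arrays 22 did, all that had passed in the main fit.

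The called genes were set against the range of the 3 control livers. Control 1 was read on the scan day of tumors 1 and 2, and no control on that of an off liver. Scan day and group thus cannot be told apart in this comparison. Among the 1316 called genes, the off mean lay within the range of the 3 control livers and the tumor mean outside it in 204 genes (15.5%). The tumor mean lay within the control range and the off mean outside it in 412 genes (31.3%). Both lay outside in 685 genes (52.1%). Over all genes tested these shares were 16.3%, 23.2% and 34.3%. A called change was thus not always a return toward the control livers.

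**Figure D2:**
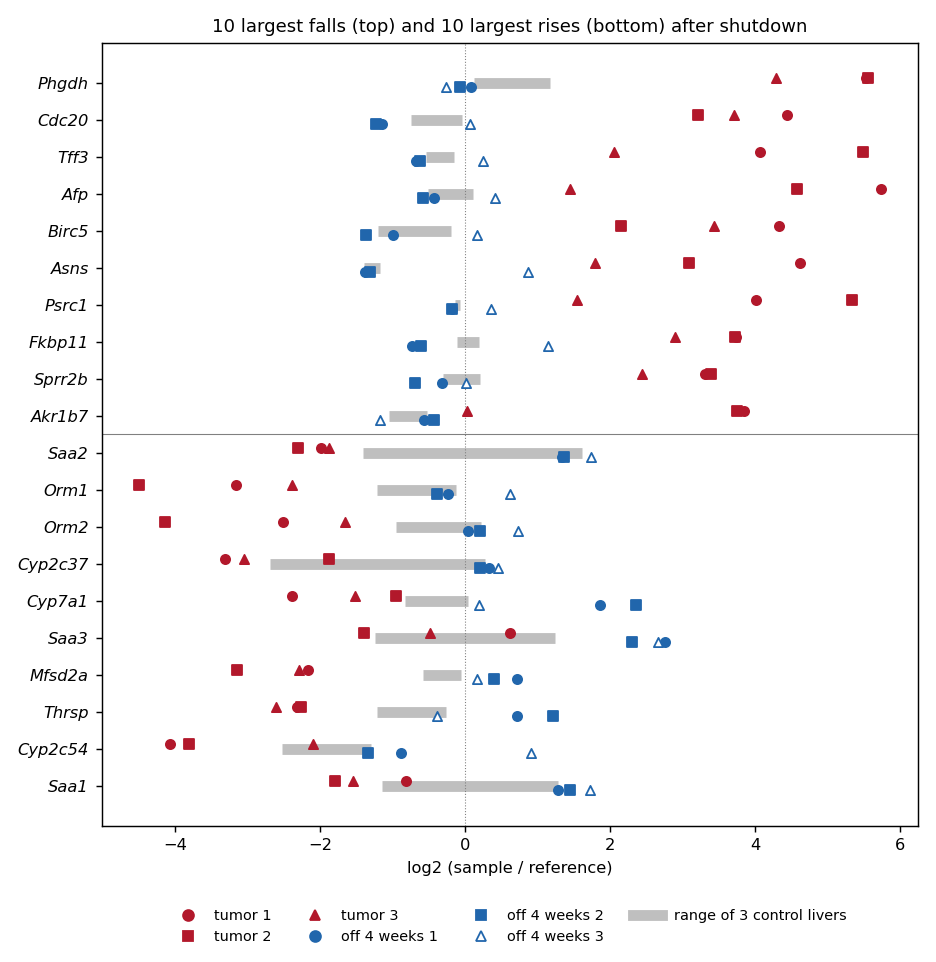
Log2 of sample over reference in each tumor (red) and off liver (blue; off liver 3 open) for the 10 genes with the largest called falls and the 10 with the largest called rises whose groups do not overlap, with the range of the 3 control livers in grey. The tumors lie to the right of every off liver in the upper 10 genes and to the left in the lower 10, and Akr1b7 has the narrowest gap among the falls, with tumor 3 at 0.023 and the highest off liver at -0.43.

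Genes of mitosis fell. Of 30 listed mitosis genes 9 passed the test, all of them lower in the off livers, and 29 of 30 had a negative difference, with a median of -1.24 against 0 over all genes. In 17 of them every off liver was below every tumor, against 12.3% of all genes. The median level of the list was 1.94, 0.86 and 0.53 in tumors 1, 2 and 3, -0.43, -0.47 and 0.26 in off livers 1, 2 and 3 and -0.25 to -0.14 in the controls, so that off liver 3 lay above the controls and off livers 1 and 2 below them. Cdc20, which activates the ubiquitin ligase that ends metaphase, was 4.44, 3.20 and 3.70 in the tumors and -1.14, -1.23 and 0.062 in the off livers. It fell by 4.55 (SE 0.90, adjusted p = 0.00442), and the difference was -4.97 without off liver 3 (adjusted p = 0.00563). Birc5, or survivin, a subunit of the chromosomal passenger complex, was 4.33, 2.15 and 3.43 in the tumors and -1.0, -1.37 and 0.15 in the off livers, a difference of -4.05 (SE 0.93, adjusted p = 0.0106). Tumors were above all off livers in both genes, with off liver 3 the highest of its group. The others that fell were Aurka (-2.53) and Plk1 (-2.78), mitotic kinases, Ccnb2 (-2.45), a cyclin, Cdca8 (-2.27), of the same passenger complex, Cdca3 (-2.85), and the motor proteins Cenpe (-3.12) and Kif20a (-2.83). Without off liver 3 these 9 again passed, with Mki67 (-3.32, adjusted p = 0.047; 0.0555 with all 3) in addition. The count fell to 1 without tumor 1, 5 without off liver 1 and 2 without off liver 2, and was 26 with the scanner's own log ratio. With the slide block 0 of the 9 passed, and the median was -0.67. Psrc1, a microtubule-binding protein outside the list, was 4.01, 5.34 and 1.55 in the tumors and -0.19, -0.18 and 0.35 in the off livers (-3.64, SE 1.01, adjusted p = 0.0312), and missed the threshold without off liver 3 (adjusted p = 0.0521); its spot was well above background in 1 of 3 off livers.

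Promoters of mitotic genes are known for a CHR element near the start, bound by the DREAM complex in resting cells, and for upstream CCAAT boxes bound by NF-Y. The 250 bases before the RefSeq start of Cdc20 (build GRCm38.p6, chr4:118437344-118437593, minus strand) and Psrc1 (chr3:108383588-108383837, plus strand) are shown because both genes are among the largest falls and both windows hold these letters, with the CHR hexamer TTTGAA or TTCGAA, searched on both strands, in capitals.
Cdc20: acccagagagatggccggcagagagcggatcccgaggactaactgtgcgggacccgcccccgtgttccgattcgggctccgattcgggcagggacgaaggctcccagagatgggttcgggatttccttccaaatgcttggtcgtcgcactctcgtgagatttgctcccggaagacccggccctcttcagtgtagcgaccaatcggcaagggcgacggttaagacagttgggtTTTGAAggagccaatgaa
Psrc1: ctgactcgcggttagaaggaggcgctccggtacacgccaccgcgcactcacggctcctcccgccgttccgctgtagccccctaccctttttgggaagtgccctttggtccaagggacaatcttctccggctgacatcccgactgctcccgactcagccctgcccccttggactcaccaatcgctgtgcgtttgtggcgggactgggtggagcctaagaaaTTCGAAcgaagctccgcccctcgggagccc
The hexamer starts at -18 in Cdc20, with CCAAT on either strand both upstream and downstream of it, and at -30 in Psrc1, with CCAAT at -75, counted from the start backwards. Of the 9 mitosis genes that fell, 8 have a window in the table, 2 of which (Ccnb2 and Cdc20) hold the hexamer, 7 hold CCAAT and 0 hold the Myc E-box CACGTG. Over all 27025 genes with a window, 19.6% hold the hexamer, 37.5% CCAAT and 6.86% CACGTG. Among the 25 listed mitosis genes with a window, fallen or not, 10 hold the hexamer and 21 CCAAT.

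Genes of DNA replication were lower as well, with fewer calls. Of 28 genes 3 fell and 0 rose, with a median difference of -1.12. Those that fell were Mcm3 (-2.23, SE 0.62, adjusted p = 0.0303) and Mcm7 (-2.15, SE 0.59, adjusted p = 0.0298), subunits of the replicative helicase, and Tyms (-1.44, adjusted p = 0.0446), thymidylate synthase. Without off liver 3, 2 passed, Mcm7 and Mcm6. Mcm6 then differed by -3.79 (adjusted p = 0.0397), with tumors at 2.92, -0.39 and 1.79 and off livers 1 and 2 at -1.89 and -2.82. No replication gene passed without tumor 1 or without off liver 1 or 2. With tumor 2 left out 7 passed, with tumor 3 left out 1, and with the slide block 0 (median -0.69). By the scanner's own log ratio 16 fell and 0 rose (median -1.94). Of the G1 genes, Ccne1, the cyclin of entry into S phase, was 2.88, 1.57 and 1.56 in the tumors and -0.12, -0.25 and -0.73 in the off livers (-2.37, adjusted p = 0.0109), and E2f1 fell by 0.94 (adjusted p = 0.0353). Stmn1, which destabilizes microtubules, was 3.05, 0.94 and 2.65 against -1.08, -1.68 and 0.35 (-3.02, adjusted p = 0.0116).

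Serine and asparagine synthesis gave the clearest metabolic fall. Phgdh, the first enzyme of serine synthesis, was 5.53, 5.55 and 4.28 in tumors 1, 2 and 3 and 0.077, -0.075 and -0.27 in off livers 1, 2 and 3, the largest called fall of the comparison (-5.21, SE 0.85, adjusted p = 0.00108). All 3 tumors were more than 4 above every off liver, and the controls ran from 0.11 to 1.17. Psph, the last enzyme of the pathway, was 2.84, 2.32 and 2.49 against -0.37, -0.35 and -0.34 (-2.90, SE 0.54, adjusted p = 0.00332), and the 3 off livers hardly differed from each other. Without off liver 3 these differences were -5.12 (adjusted p = 0.00325) and -2.91 (adjusted p = 0.00799). With Tyms, 3 of 12 genes of serine and one-carbon synthesis fell and 0 rose, with a median of -1.24. Again 3 fell without off liver 3, and with the slide block 2 (median -0.72). In the fit of the 6 arrays alone 2 genes of this list passed, of 42 in all.

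Asns, which makes asparagine and is a target of the stress factor ATF4, was 4.62, 3.09 and 1.79 in the tumors and -1.38, -1.31 and 0.86 in the off livers (-3.78, SE 0.98, adjusted p = 0.0215). Off livers 1 and 2 lay at the level of the controls (-1.40 to -1.18) and off liver 3 between them and the tumors, so that the difference without it was -4.51 (adjusted p = 0.0157). Of 23 ATF4 targets 7 fell and 1 rose, with a median of -0.62. With off liver 3 left out, 5 fell and 0 rose, without tumor 2 only 2 fell, without off liver 1 or off liver 2 4 fell, and with the slide block 2 fell (median -0.21). Sars, the seryl-tRNA synthetase, had little spread within either group. It was 2.23, 2.14 and 2.14 in the tumors, 0.039, 0.079 and -0.039 in the off livers and 0.88 to 0.98 in the controls, so that the controls lay between the groups (-2.14, SE 0.25, adjusted p = 3.31e-05). Ddit4, an inhibitor of mTORC1, was 2.81, 2.09 and 2.34 against -0.29, -0.96 and -0.13 (-2.88, adjusted p = 0.00349). Fgf21, a fasting and stress hormone of the liver, was 1.78, 4.21 and 3.52 against -0.55, 0.06 and 2.00, with off liver 3 above tumor 1 (-2.67, adjusted p = 0.0117; -3.41 without off liver 3, adjusted p = 0.00299). Trib3 (-1.87), Atf5 (-1.52) and Sesn2 (-1.62) also fell, the last pair not without off liver 3 (adjusted p = 0.0588 and 0.127). Atf4 itself was the member that rose (0.83, adjusted p = 0.0239), and its call was lost without off liver 3 (adjusted p = 0.131). Of the fallen ATF4 targets, 2 (Asns and Fgf21) of 7 hold TGATGNAA, a word of the C/EBP-ATF response element, in the 250 bases before their start, against 9 of the 20 listed targets with a window, fallen or not, and 3.91% of all genes with a window. The window of Asns (chr6:7693210-7693459, minus strand) shows it at -23, in capitals.
Asns: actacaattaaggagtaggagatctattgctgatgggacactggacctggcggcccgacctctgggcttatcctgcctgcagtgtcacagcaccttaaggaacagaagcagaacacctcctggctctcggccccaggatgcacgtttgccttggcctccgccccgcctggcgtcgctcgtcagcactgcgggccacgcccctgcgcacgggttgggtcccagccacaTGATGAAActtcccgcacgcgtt

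Fetal liver genes fell where tumors 1 and 2 were high. Of 19 oncofetal genes 5 fell and 0 rose, with a median of -1.38. The median level of the list was 2.22, 1.04 and 0.036 in tumors 1, 2 and 3, so tumor 3 lay within the controls (-0.044 to 0.11), as all off livers nearly did (-0.0096, 0.0038 and -0.10). Afp, the fetal albumin-like protein used as a liver tumor marker, was 5.74, 4.58 and 1.44 in the tumors and -0.43, -0.58 and 0.41 in the off livers (-4.12, SE 1.08, adjusted p = 0.0226). Igf2, a fetal growth factor, was 4.47, 4.56 and 0.75 against 0.17, 0.077 and -0.27 (-3.26, SE 0.72, adjusted p = 0.00842), well above background in 2 of 3 off livers. H19, the RNA imprinted beside Igf2, was 3.47, 2.62 and 0.061 against -0.084, 0.0038 and 0.065, with tumor 3 among the off livers (-2.06, adjusted p = 0.0487; 0.0899 without off liver 3). Hmga1, a chromatin protein, was 4.34, 1.74 and 1.58 against -0.32, -0.18 and -0.31 (-2.82, adjusted p = 0.00774), and Golm1, a Golgi protein, 2.22, 1.43 and 0.46 against -0.63, -0.81 and -0.55 (-2.04, adjusted p = 0.00536). Tumor 3, the lowest tumor at the Myc probe A_52_P108346, was the lowest tumor in each of these 5 genes. Its log ratios also spread less over all genes (SD 0.41, against 0.76 in tumor 1 and 0.70 in tumor 2). The part of Myc RNA or of this smaller spread was not tested. No oncofetal gene passed without tumor 1 or with the slide block (median -0.83), 2 fell without tumor 2, 3 without off liver 1 or off liver 2, and 4 without off liver 3. In the IGF axis, Igf2r, which clears IGF2, fell by 1.85 (adjusted p = 0.0106), and Insr, the insulin receptor, rose by 1.33 (SE 0.28, adjusted p = 0.00658), from -0.85, -0.71 and -0.47 in the tumors to 0.67, 0.99 and 0.30, though another Insr probe differed by only -0.026.

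Of 21 p53 targets 4 fell and 0 rose, with a median of -0.19. Phlda3, an AKT inhibitor, was 2.52, 3.41 and 2.67 in the tumors and -0.22, -0.31 and -0.48 in the off livers (-3.20, SE 0.53, adjusted p = 0.00119). Bbc3, or PUMA, which promotes cell death, was 1.85, 0.91 and 0.0067 against -1.16, -1.10 and -1.74, with the controls (0.32 to 0.56) between off livers and the upper tumors (-2.26, SE 0.37, adjusted p = 0.00119). The other p53 targets that fell were Plk2 (-1.41) and Sesn2, and neither passed without off liver 3. Of the list 2 fell without tumor 1 or tumor 2, and 3 with the slide block (median -0.082). By the scanner's own log ratio 9 fell and 0 rose (median -1.15).

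Genes of ER folding and secretion moved both ways, 6 down and 3 up of 32, with a median of -0.36. Fkbp11, a peptidyl-prolyl isomerase of secretory cells, was 3.74, 3.73 and 2.89 in the tumors and -0.73, -0.61 and 1.14 in the off livers (-3.52, SE 0.69, adjusted p = 0.00442). Hsp90b1, the ER chaperone GRP94, fell by 1.08 (adjusted p = 0.00674), Hyou1 by 1.51 (adjusted p = 0.0148), the translocon subunit Sec61a1 by 1.16 (adjusted p = 0.00398) and Ssr1 by 0.99 (adjusted p = 0.00349), with 1 of the 3 Sec61a1 probes and 2 of the 5 Ssr1 probes of the opposite sign. Sec61b fell too (adjusted p = 0.0487). The risers were Dnajb9 (1.73, adjusted p = 0.0106), Xbp1, the transcription factor of the unfolded protein response (1.54, adjusted p = 0.0253), and the signal peptidase subunit Spcs1 (1.50, adjusted p = 0.00839). Leaving out off liver 3, 2 rose and 6 fell, without tumor 1 0 rose and 6 fell, without off liver 1 2 rose and 4 fell, and with the slide block 1 rose and 4 fell.

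Acute phase genes made up 5 of the 10 largest called rises. These plasma proteins of hepatocytes are known to be induced by interleukin 6 and interleukin 1 through STAT3, NF-kB and C/EBPβ. Of 30 measured 7 rose and 1 fell, with a median of 0.77, and without off liver 3 8 rose and 0 fell. Without tumor 2 3 rose, without tumor 1, off liver 1 or off liver 2 5, and with the slide block 2 (median 0.52). Saa2, a serum amyloid A gene, was -1.99, -2.31 and -1.87 in the tumors and 1.33, 1.36 and 1.73 in the off livers, where its spot was saturated on all 3 arrays. Relative to the reference it was at least 11.6-fold higher in the off livers (adjusted p = 0.00938), and 31.2-fold by the sample channel alone. Saa1 was -0.82, -1.79 and -1.55 against 1.28, 1.44 and 1.72, also saturated in the off livers, and at least 7.30-fold higher (adjusted p = 0.0128), or 17.3-fold by the sample channel alone. The reference spots were not saturated, so the smaller folds are lower bounds on either scale. The coding sequences of Saa1 and Saa2 are closely alike, so their probes may not be told apart. Saa3, the form also made outside the liver, was 0.62, -1.40 and -0.49 in the tumors, 2.75, 2.31 and 2.66 in the off livers and -1.25 to 1.23 in the controls (3.00, SE 0.66, adjusted p = 0.00857). All 3 off livers were thus above every tumor and control in Saa3, and off liver 3 stood with its group.

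The orosomucoid genes, which encode α1-acid glycoproteins, rose with them. Orm1 was -3.16, -4.51 and -2.39 in the tumors and -0.24, -0.39 and 0.62 in the off livers (3.35, SE 0.62, adjusted p = 0.00321), Orm2 -2.51, -4.15 and -1.66 against 0.033, 0.20 and 0.73 (3.09, adjusted p = 0.00496), and Orm3 -0.64, -1.58 and -0.12 against 2.00, 1.77 and 0.50 (2.20, adjusted p = 0.035). For Orm1 and Orm2 all tumors lay below the controls (-1.22 to -0.12 and -0.96 to 0.21), off livers 1 and 2 within them and off liver 3 above them. These paralogs are alike enough that probes may share signal. Steap4, a metalloreductase, rose by 1.41 (adjusted p = 0.0402, 0.0498 without off liver 3). Socs3, the feedback inhibitor of STAT3, was -0.88, -0.66 and -0.85 in the tumors and 1.49 and 1.42 in off livers 1 and 2 but -1.11 in off liver 3, and passed only without the latter (2.26, adjusted p = 0.00953; 0.141 with it). The 1 member that fell was Mt2, a metallothionein, at 3.55, 3.66 and 3.55 in the tumors and 1.83, 1.84 and -2.69 in the off livers (-3.26, adjusted p = 0.0369), and this rested on off liver 3 (adjusted p = 0.259 without it). Of the neutrophil markers, which include Lcn2, an acute phase gene as well, 0 of 13 rose, with a median level of 0.025, 0.10 and 0.0016 in the tumors and 0.25, 0.14 and 0.078 in the off livers. S100a8 stood at 0.31, 0.51 and 0.0073 against 1.92, 1.93 and 0.70 and Lcn2 at 1.13, 0.10 and 0.0011 against 2.19, 1.98 and 1.20, and neither passed. The part of neutrophils in the acute phase rise was not tested.

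The 250 bases before the starts of Saa1 (chr7:46742981-46743230, minus strand) and Saa2 (chr7:46751583-46751832, plus strand) are shown because these neighbours on chromosome 7 rose together. Their windows are 94.8% identical over 251 aligned columns, and both hold TTGTGCAA or its reverse complement TTGCACAA, a C/EBP-type word, printed in capitals, at -182 and -183.
Saa1: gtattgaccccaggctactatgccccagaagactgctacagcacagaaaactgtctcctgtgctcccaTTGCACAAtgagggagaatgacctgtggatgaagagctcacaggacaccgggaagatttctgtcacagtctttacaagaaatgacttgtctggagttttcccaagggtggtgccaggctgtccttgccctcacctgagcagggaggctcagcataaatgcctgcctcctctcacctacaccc
Saa2: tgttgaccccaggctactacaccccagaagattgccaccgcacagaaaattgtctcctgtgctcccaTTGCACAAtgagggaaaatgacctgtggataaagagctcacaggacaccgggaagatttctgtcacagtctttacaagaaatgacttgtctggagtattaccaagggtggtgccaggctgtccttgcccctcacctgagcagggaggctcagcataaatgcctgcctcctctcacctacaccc
Of the 7 acute phase genes that rose 6 have a window, and 3 of them (Orm3, Saa1 and Saa2) hold this word on either strand, the same 3 as among all 24 listed genes with a window. Over all genes with a window the share is 1.01%.

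Enzymes of the adult hepatocyte were mostly higher in the off livers, though few passed singly. Of 46 cytochrome P450 and conjugating enzymes 3 rose and 0 fell, yet 42 had a positive difference, with a median of 1.48, and in 23 every off liver was above every tumor, against 12.7% of all genes. The list's median level was -2.66, -1.57 and -1.22 in the tumors, -0.34, -0.24 and 0.12 in the off livers and -0.88 to -0.44 in the controls, so that all off livers were above all controls. Cyp2c37, which acts on arachidonic acid, was -3.32, -1.88 and -3.06 in the tumors and 0.33, 0.21 and 0.45 in the off livers (3.08, SE 0.79, adjusted p = 0.019), with controls from -2.70 to 0.27 that spanned most of the gap. Cyp2c54 was -4.08, -3.81 and -2.10 against -0.89, -1.35 and 0.91 (2.89, adjusted p = 0.0297), and Ugt2b34, a glucuronosyltransferase, -2.20, -2.23 and -0.78 against -0.22, -0.26 and 0.78 (1.84, adjusted p = 0.0343). In both, off liver 3 was the highest, and without it neither passed (adjusted p = 0.146 and 0.139). The Cyp2c and Ugt2b genes are families of close paralogs whose probes may share signal. Of the list 2 rose without off liver 3, and 1 without tumor 2 or off liver 2. None rose without tumor 1, without off liver 1 or with the slide block (median 1.08). By the scanner's own log ratio 9 rose and 0 fell (median 1.89).

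Cyp7a1, the rate-limiting enzyme of bile acid synthesis, was -2.38, -0.95 and -1.52 in the tumors and 1.86, 2.35 and 0.18 in the off livers (3.08, SE 0.69, adjusted p = 0.00914; 3.72 without off liver 3, adjusted p = 0.00455). Off livers 1 and 2 were above all controls (-0.83 to 0.034). It was the only one of 24 bile acid genes to pass, and the list's median difference was 0.77.

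Amino acid breakdown rose more broadly: 9 of 37 genes of the urea cycle and of amino acid breakdown rose and 0 fell, with a median of 0.71. The risers included Hpd (1.69, adjusted p = 0.0317), Hgd (1.44, adjusted p = 0.0181), Gstz1 (1.09) and Fah (0.83), which act in sequence in tyrosine breakdown. Tdo2 (2.61, adjusted p = 0.04), which opens tryptophan breakdown, rose too. Prodh, proline dehydrogenase, was -0.69, -1.01 and -2.67 in the tumors and 0.47, 0.91 and 0.19 in the off livers (1.98, SE 0.43, adjusted p = 0.00782). The mitochondrial carriers of the urea cycle Slc25a13 (1.33) and Slc25a15 (0.86) rose, as did Aass (2.38), which breaks down lysine. Without off liver 3, 5 rose: Prodh and Slc25a15 again, and Ahcy, Asl and Mat1a in place of the rest. Without tumor 1 only 1 rose, without tumor 3 5, without off liver 1 3, and without off liver 2 or with the slide block 2.

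Lipid genes rose in small numbers. Of 24 cholesterol genes 4 rose and 0 fell, with a median of 0.98. Nsdhl (1.46, adjusted p = 0.0187; 1 of its 4 probes -0.038), Cyp51 (1.61, adjusted p = 0.0315) and Pmvk (1.31, adjusted p = 0.0416) of the synthesis pathway were among them. Here tumor 3 stood with the off livers: the median level was -0.99, -1.39 and 0.12 in the tumors and 0.045, 0.38 and -0.075 in the off livers, and without tumor 3 11 genes rose. The risers came to 3 without off liver 3, 1 without off liver 1, and none without tumor 1, tumor 2 or off liver 2 or with the slide block (median 0.65). Thrsp, a lipogenic regulator induced by thyroid hormone, was -2.32, -2.27 and -2.61 in the tumors and 0.72, 1.20 and -0.40 in the off livers (2.91, SE 0.42, adjusted p = 0.000406). It was the 1 of 26 fatty acid synthesis genes to pass with all off livers. Without off liver 3, Acacb (2.22, adjusted p = 0.0117) and Fasn (1.73, adjusted p = 0.0315) rose too and Gpam fell (-1.66, adjusted p = 0.0113). The Fasn spot of tumor 1 was marked as an outlier and was missing from the fit. Acacb stood at 0.34 and 0.44 in off livers 1 and 2 and at -2.12 in off liver 3, within the tumors (-1.76, -2.09 and -1.64).

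Among genes of fatty acid oxidation 3 of 30 rose and 1 fell. The rises came to 1 without off liver 3, off liver 1 or tumor 2, and to 0 without tumor 1 or off liver 2 and with the slide block, while the fall passed in each. Etfa (1.05, adjusted p = 0.0429) and Etfdh (1.18, adjusted p = 0.0242) rose while Etfb, the partner of Etfa in the same flavoprotein, fell by 1.27 (adjusted p = 0.00548; 0.0155 without off liver 3), from 1.16, 1.59 and 1.15 to 0.032, 0.063 and -0.0083. Of genes of glucose output 2 of 17 rose, Gbe1, the glycogen branching enzyme (1.72, adjusted p = 0.0099), and Ppp1r3b, which directs a phosphatase to glycogen (1.23, adjusted p = 0.0365). Both passed without off liver 3 (adjusted p = 0.0334 and 0.0475), 1 of the list without tumor 2, off liver 1 or off liver 2, and none without tumor 1 or with the slide block. Mfsd2a, a transporter of lysophospholipids, was -2.17, -3.15 and -2.30 against 0.72, 0.40 and 0.17 (2.97, adjusted p = 0.0375; 0.0632 without off liver 3). Of the hepatocyte transcription factors Hnf4a rose by 0.64 (adjusted p = 0.0431), and of the clock genes the output factor Hlf by 1.32 (adjusted p = 0.00941).

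**Figure D3:**
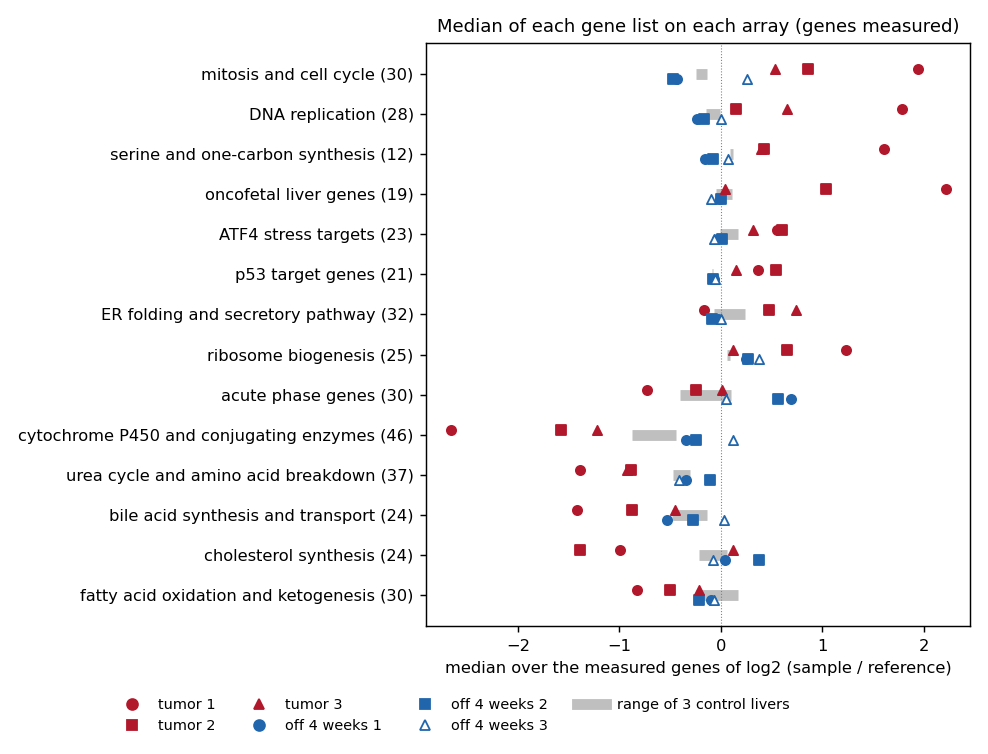
Median over the measured genes of each list of log2 of sample over reference, on each tumor array (red) and off array (blue; off liver 3 open), with the range of the same median over the 3 control livers in grey and the number of genes measured in brackets. The tumors lie above the off livers in mitosis, replication and serine synthesis and below them in cytochrome P450 and conjugating enzymes, and tumor 1 is the farthest from the off livers in each of those 4 lists.

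Some genes outside these pathways moved as far. Sprr2b, a small proline-rich protein of stressed epithelia, was 3.30, 3.39 and 2.44 in the tumors, -0.32, -0.70 and 0.014 in the off livers and -0.31 to 0.20 in the controls (-3.38, SE 0.39, adjusted p = 3.31e-05; -3.56 without off liver 3). Its family has close members whose RNA the probe may also bind. Tff3, a trefoil peptide, was 4.07, 5.49 and 2.05 against -0.68, -0.62 and 0.25 (-4.22, SE 1.05, adjusted p = 0.0163), well above background in 2 of 3 off livers. Akr1b7, an aldose reductase, was 3.84, 3.75 and 0.023 against -0.57, -0.43 and -1.18 (-3.27, adjusted p = 0.0487), and was lost without off liver 3 (adjusted p = 0.124). Lpl, lipoprotein lipase, which adult hepatocytes make little of, was 2.91, 3.99 and 2.14 against 0.43, 0.019 and -0.64 (-3.07, adjusted p = 0.0226; 0.0762 without off liver 3). Phlda1, which ERK signalling induces, rose where the other 11 ERK feedback genes did not pass, from -2.82, -1.09 and -2.55 in the tumors to 1.54, 1.07 and -0.67 in the off livers (2.80, SE 0.62, adjusted p = 0.00892). Cxcl1, a chemokine of neutrophils, was 0.48, 2.33 and -0.031 in the tumors and 4.78, 4.31 and 0.40 in the off livers, and passed only without off liver 3 (3.62, adjusted p = 0.0311; 0.222 with it). Ntrk2, a neurotrophin receptor, was -0.97, -1.42 and 0.12 against 3.08, 2.06 and -1.57 and likewise passed only without it (3.33, adjusted p = 0.0156; 0.221 with it).

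Lists of Myc's own programme and of EGF receptor signalling gave few calls, but only 5.91% of all genes passed. An unadjusted p under 0.05 was found in 4181 of all 22263 genes. At these shares lists this short would hold few calls, so their counts show no lack of change. Of 25 genes of ribosome biogenesis, a known Myc programme, 0 rose and 0 fell in limma (9 had an unadjusted p under 0.05), with a median difference of -0.37 and median levels of 1.24, 0.65 and 0.12 in the tumors and 0.25, 0.27 and 0.38 in the off livers. Of 19 genes of the Myc network, Cad, the start of pyrimidine synthesis, fell (-1.91, adjusted p = 0.0454; 0.126 without off liver 3; 1 of its 4 probes 0.055) and the others did not pass. None of 15 EGF receptor and ligand genes and none of 17 immediate early genes passed in limma with all 3 off livers, with 3 in each list at an unadjusted p under 0.05. None of 81 interferon, coagulation, complement or plasma protein genes passed either, with 11 at an unadjusted p under 0.05.

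Few markers of other cells passed the test, where 5.91% of all genes did. The Kupffer cell genes had a median difference of 0.38, with 17 of 21 higher. Over probes well above background on all 3 arrays of a group, the median was 0.97 for neutrophil and -0.98 for erythroid markers. In the main fit these medians were 0.12 and -0.27. Of the markers of biliary cells 1 of 18 (Tff3), of stellate cells and matrix 1 of 24 (Tagln, -2.02) and of adipocytes 1 of 11 (Lpl) fell, and none of these lists had a gene that rose. Tff3 passed without off liver 3 as well (adjusted p = 0.0268), and Tagln and Lpl did not (adjusted p = 0.0792 and 0.0762). Of 15 hepatocyte markers 2 rose (Hpd and Tdo2; 0 without off liver 3, adjusted p = 0.056 and 0.165), with a median level of -2.21, -0.92 and 0.01 in the tumors and 0.0088, 0.053 and 0.031 in the off livers, so tumor 3 had the level of the off livers. No marker of endothelium, Kupffer cells, neutrophils, T and NK cells, B cells, erythroid cells, pancreas, intestine or muscle passed in either direction in limma, and 2 of these 131 genes had an unadjusted p under 0.05. Of the Kupffer cell genes 1 rose without off liver 3. Krt19 and Epcam, defining markers of bile ducts, stayed between -0.22 and 0.27 on all 6 arrays. Albumin stood at -0.053, 0.95 and 1.83 in the tumors and 0.21, 0.16 and 0.13 in the off livers (adjusted p = 0.815).

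The response was set against that after c-Myc alone, 3 livers off for 4 weeks less 7 tumors, which shares no array with it. The difference of the responses passed the test in 2430 genes, 1265 higher (5.68%) and 1165 lower (5.23%) after both transgenes than after c-Myc alone. Of the 7 c-Myc tumors, 6 were read on another scanner than all other arrays, and over the arrays of the first scanner alone, with 1 c-Myc tumor assumed to vary like the other groups, 2923 genes passed. Without tumor 2 1179 passed. None of the 30 mitosis genes differed in response in limma (5 had an unadjusted p under 0.05), with medians of -1.24 here and -2.37 after c-Myc alone, where 29 fell. The Phgdh difference was -5.21 here and -4.80 after c-Myc alone, and the difference of -0.41 (SE 1.11, adjusted p = 0.866) was smaller than its error. Cdc20 differed by -1.41 (SE 1.17, adjusted p = 0.496).

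Of 30 acute phase genes 8 had a higher and 2 a lower response than after c-Myc alone, with a median difference of responses of 0.13. Other lists held differences too: of 32 ER folding genes 5 were higher and 4 lower, of 23 ATF4 targets 1 and 5, and of 30 coagulation and complement genes 0 and 7 (median -1.55). Of 22 endothelial markers 6 were lower (median -1.21), and the medians of 23 plasma protein and 23 male-biased genes were -1.92 and -2.81, with 3 and 4 lower. Saa3 rose by 3.00 here and fell by 3.00 after c-Myc alone (SE 0.56, adjusted p = 0.000345), a difference of 6.00 (SE 0.87, adjusted p = 0.000163), and of 3.54 over scanner 1 alone (adjusted p = 0.0149). The 8 include Saa1 and Saa2, whose saturated spots leave the size of their differences of responses unmeasured. Orm1 (2.69, adjusted p = 0.0322) and Orm2 (2.66, adjusted p = 0.034) also differed in response. Over scanner 1 alone they did not pass, at 1.26 (adjusted p = 0.408) and 0.69 (adjusted p = 0.658). Sprr2b fell here and was at 0.066 after c-Myc alone (SE 0.33), a difference of -3.45 (SE 0.51, adjusted p = 0.000222; -1.93 over scanner 1, adjusted p = 0.0298). Sars likewise fell here and was at -0.085 after c-Myc alone, a difference of -2.06 (adjusted p = 0.000344; -2.22 over scanner 1, adjusted p = 0.0027). Insr rose here and was at 0.14 after c-Myc alone, a difference of 1.18 (adjusted p = 0.0378; 1.48 over scanner 1, adjusted p = 0.0436).

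**Figure D4:**
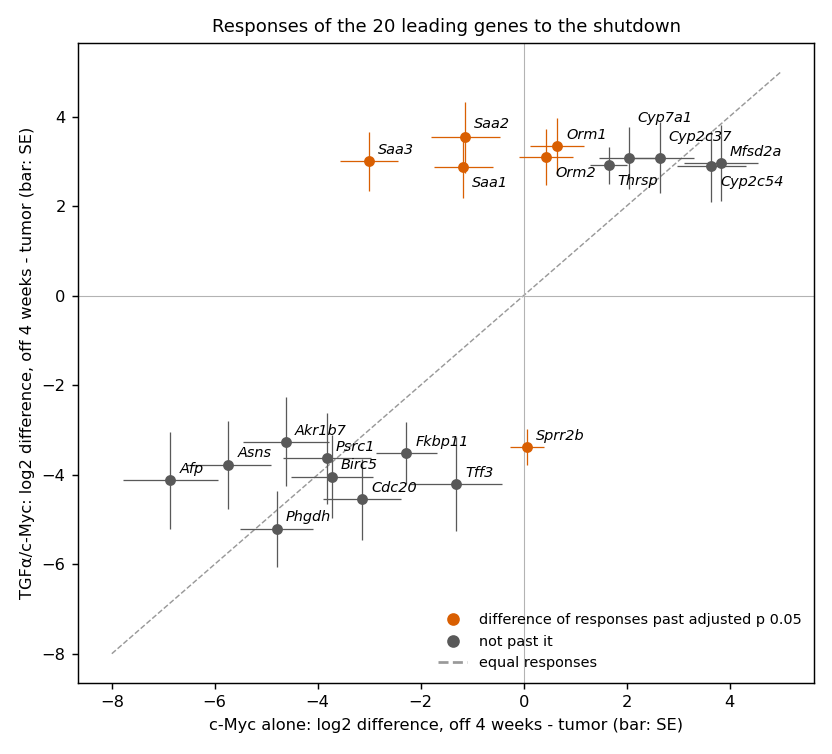
Log2 difference, off 4 weeks less tumor, of the 20 genes with the largest called rises and falls, with both transgenes (vertical) against c-Myc alone (horizontal), with bars of 1 SE and a dashed line of equal responses. The genes in orange, whose responses differ in the fit of all arrays, are Saa1, Saa2, Saa3, Orm1, Orm2 and Sprr2b. Only 1 of the c-Myc tumors was read on the scanner of the other arrays. Saa1 and Saa2 were saturated in the off livers with both transgenes, so their places on the vertical axis are lower bounds.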

How the data were processed

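RNA of 34 mouse livers and liver tumors was measured on 2-color Agilent arrays. Per the labels, Cy3 held the sample and Cy5 the pooled liver reference, with no dye swap. The scanner files hold mean and background intensity per spot and, per the file headers, a log10 ratio of red over green made from processed intensity. The authors' series matrix was read as log2 red over green: with its sign turned, each column correlated with log2 of Cy3 over Cy5 at r between 0.24 and 0.86 (its medians ran from -0.25 to 0.39 over the 6 arrays; its scale and centring stay unknown). The submitters' processing notes name limma; the other steps are not given in the sources used here.

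Mean signals were background-corrected by normexp (offset 50) and normalized by loess within arrays, with control spots left out and outlier spots missing. Probes were kept where the scanner marked Cy3 well above background on 3 or more arrays (32773 of 41174). A gene was read at its brightest kept probe, named through RefSeq accessions (22315 probes) or else the array's names, in all 22263 genes (7364 had several probes). limma 3.58.1 in R 4.3.3 was fitted over all 34 arrays with a coefficient for each group and eBayes, with Benjamini-Hochberg adjustment over all genes and 0.05 as threshold. The fit was tested on simulated data. P-values measure the spread between these arrays. Named genes are those with the 10 largest called rises and falls without overlap, Myc and Tgfa, the 4 smallest p of each list, and the 5 smallest p on each side for the difference of responses; other list members were chosen after their values were seen. Some genes under this rule are not reported here. Members and lists were chosen with earlier results of these data known. Promoters are RefSeq's (GRCm38.p6). The alternatives, among them each array left out, other backgrounds, scalings, filters and blocks, are given in the closing section.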

Additional observations from a re-analysis of the deposited data

Results flagged for a closer look

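The response differed from that after c-Myc alone most clearly, by p, in 10 genes (limma, test of the difference of responses; values are log2 differences of responses, both transgenes less c-Myc alone). It was lower in Blcap (-2.27, adjusted p = 6.11e-05), Csnk1g2 (-1.82, adjusted p = 9.47e-05), Lypla2 (-1.86, adjusted p = 7.14e-05), Ppp2r3a (-2.29, adjusted p = 8.15e-05) and Rhot2 (-1.13, adjusted p = 8.15e-05). It was higher in Clta (1.70, adjusted p = 8.15e-05), Rabggtb (2.34, adjusted p = 6.11e-05), Rtraf (2.68, adjusted p = 0.000101), Sdhd (2.86, adjusted p = 7.14e-05) and Slc25a3 (2.59, adjusted p = 0.000101).

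All 10 moved one way here and the other way after c-Myc alone, as Blcap did (-0.95 here, 1.32 after c-Myc alone). In each but Clta the mean of the off livers lay farther from the control mean than that of the tumors. Sdhd, a membrane anchor of succinate dehydrogenase, was -1.0, -0.91 and -0.74 in the tumors, 0.25, 0.13 and 0.16 in the off livers and -0.93 to -0.31 in the controls. Blcap was 0.71, 1.35 and 0.77 against 0.21, -0.043 and -0.19, with controls from 0.50 to 1.34. Rhot2, a mitochondrial GTPase, was 0.44, 0.42 and 0.26 against -0.56, -0.43 and -0.67, with controls from 0.33 to 0.52. Other probes of some of these genes did not move alike. Of 3 Blcap probes only 1 shared the negative sign of the off minus tumor difference, and the highest value among them was 0.096. The probe with the opposite sign gave 0.011 for Csnk1g2, 0.20 for Ppp2r3a and 0.21 for Rhot2, while that of Rabggtb gave -0.016 and that of Slc25a3 -0.32. Of the 7 c-Myc tumors, 6 were read on another scanner. Over the arrays of the first scanner alone, where the c-Myc response rests on 1 tumor, all 10 differences kept their sign.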

How the results depend on the processing

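With an array left out, the comparison gave from 306 (without tumor 1) to 1880 genes, the comparison without off liver 3 from 115 (without off liver 2 as well) to 1378, and the difference of responses from 1179 (without tumor 2) to 2441. Against 1316, the comparison gave 3138 genes with no background subtraction, 3399 with the scanner's own log ratio (2056 without off liver 3), 3716 with the series matrix (2695 without off liver 3) and 4190 with array weights. It gave 42 over only the 6 arrays, 719 at 2-fold or more, 397 with the slide as a random block and 509 with scan day as a fixed block. The replicate number as a block over the 6 arrays gave 0 in limma, with 4267 at an unadjusted p under 0.05. Same-numbered arrays deviated together from their group means at r = -0.026, 0.32 and 0.36, and differently numbered ones at -0.38 to 0.33. With so few arrays this cannot decide whether the numbers pair them. Scan day could be fitted only through 3 arrays of slide 5, whose reference differs, and this turned Afp (2.19), Akr1b7 (4.43), Asns (3.89), Cyp2c37 (-0.65), Cyp2c54 (-1.91), Fkbp11 (0.86), Mfsd2a (-1.23), Psrc1 (1.88) and Tff3 (1.39), of which Akr1b7 passed (adjusted p = 0.00117); the cause was not tested. Another 13 of the 27 named genes kept their direction but lost their call with scan day as a block, among them Phgdh, Cdc20, Saa2 and Orm1. The remaining 5 had not passed in the main fit. In the scan day fit the median of cytochrome P450 and conjugating enzymes was -1.41. The other settings stayed within 1.5 times the main count, among them scanner 1 only (1773) and without off liver 3 and tumor 3 (1378). The signal over background limits dim probes, and saturation limits Saa1 and Saa2.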
